A study of Mus musculus with 6 samples.

Results

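The annexins are a gene family of calcium-dependent membrane-binding proteins, and 10 members were examined here: Anxa1, Anxa2, Anxa3, Anxa4, Anxa5, Anxa6, Anxa7, Anxa8, Anxa9 and Anxa11. They were chosen by gene symbol, and they are 10 of the 54232 genes in the count table. RNA was sequenced from whole tibialis anterior, a leg muscle made mostly of fast fibres, of C57BL6 mice, all at an age of 1 month. The wild-type group has 3 libraries, called WT 1, 2 and 3. The Delta 51 group, dEx51 4, 5 and 6, also has 3 and comes from mice that lack exon 51 of the dystrophin gene Dmd, with no Cre driver or transgene named. No treatment is named for either group, and the sources used here give neither sex nor litter. The labels call the libraries biological replicates without tying each to its own animal. The p-values therefore set the difference between groups against the spread between these libraries within a group.

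Annexins share a conserved core that in most members binds acidic phospholipids, such as phosphatidylserine, when calcium rises. Their amino-terminal tail differs between members and carries binding sites for partners such as S100 proteins. In muscle the family is best known for membrane repair. When the fibre membrane tears, calcium flows in, and several annexins gather at the lesion together with dysferlin and help to form the repair cap. Annexins also act outside the fibre: Anxa1 is a glucocorticoid-induced mediator of the resolution of inflammation, Anxa2 with its partner S100a10 binds plasminogen at the cell surface, and Anxa5 binds the phosphatidylserine exposed on dying cells. Dystrophin-deficient fibres are prone to membrane damage, and the comparison asks which members differ in transcript level between these muscles.

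Sequence upstream of 3 members that rose (Anxa1, Anxa2 and Anxa5) and of Anxa11, which was not called, is shown so that the letters at their starts can be compared. RefSeq starts on GRCm38 were found for 8 of the 10 members (11 windows of 250 bases), and Anxa3 and Anxa6 were not matched. Both strands were searched for 7 short motifs. The AP-1 motif was spelled TGANTCA and the TATA box was spelled TATAAA. The GC box was spelled GGGCGG and the cyclic AMP response element was spelled TGACGTCA. The E-box searched was CAGCTG, and the CCAAT box and the CArG box were searched as well. Capitals mark matches, and no matches of different motifs overlapped in these genes. In Anxa2 (forward strand) the stretch chr9:69453433-69453619 holds an AP-1 match at positions -95 to -89 before the RefSeq start and a GC box at -190 to -185, and chr9:69453648-69453677 holds a TATA match at -17 to -12 and a GC box at -24 to -19. In Anxa1 (reverse strand) chr19:20390687-20390716 holds a TATA match at -32 to -27. Both 30-base stretches lie within an exon of a GENCODE transcript, and the longer stretches of Anxa2, Anxa5 and Anxa11 lie outside annotated exons of their gene. In Anxa5 (reverse strand) chr3:36475895-36476137 holds none of the 7 motifs. In Anxa11 (forward strand), chr14:25842095-25842154 holds 3 GC boxes.
Anxa2 upstream: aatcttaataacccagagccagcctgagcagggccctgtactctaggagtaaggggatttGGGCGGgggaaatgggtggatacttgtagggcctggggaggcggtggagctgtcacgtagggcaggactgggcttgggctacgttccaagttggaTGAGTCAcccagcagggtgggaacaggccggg
Anxa2 near the start: ctgggaggatgGGGCGGgTATAAAagcccc
Anxa1 near the start: tcagttcatatccTATAAAatcaggagtcc
Anxa5 upstream: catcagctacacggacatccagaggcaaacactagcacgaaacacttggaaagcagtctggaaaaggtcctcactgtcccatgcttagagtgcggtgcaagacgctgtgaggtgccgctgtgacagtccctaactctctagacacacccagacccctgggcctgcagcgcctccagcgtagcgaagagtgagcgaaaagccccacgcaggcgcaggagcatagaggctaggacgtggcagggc
Anxa11 upstream: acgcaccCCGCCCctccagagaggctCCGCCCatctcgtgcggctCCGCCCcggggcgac

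Among all 32851 windows of this length in the RefSeq table, 6.75% held an AP-1 match, 12.4% a TATA match, 32.7% a GC box, 33.9% CCAAT, 13.0% CAGCTG, 1.55% the cyclic AMP element and 1.47% a CArG box. The AP-1 match was in Anxa2 and the TATA matches were in Anxa1 and Anxa2, while GC boxes were in Anxa2, Anxa7 and Anxa11. CAGCTG was found upstream of a second annotated start of Anxa4 and of Anxa9. Anxa5 and Anxa8 held no match. These matches describe the letters in the windows and do not show that a factor binds there.

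The libraries held 15681945 to 21020353 counts. Dmd, the gene that carries the exon deletion, was at 235 to 266 CPM (counts scaled to an equal library total) in WT and 46.4 to 51.1 CPM in dEx51. The 8 myofibre markers, all detected, summed to 126637 to 127650 CPM in WT and 79978 to 121788 CPM in dEx51, and 0 of the 8 were called. CPM values here carry TMM scaling (trimmed mean of M values), which assumes that most genes do not differ. In RNA from whole muscle, fewer cells of a type and less RNA per cell cannot be told apart.

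In all, 5 of the 10 annexins were called higher in dEx51 muscle and 0 lower (edgeR quasi-likelihood test, adjusted p under 0.05). Anxa1 rose most, 5.71-fold, followed by Anxa4 (4.30-fold), Anxa2 (3.97-fold), Anxa5 (2.56-fold) and Anxa7 (1.94-fold). Anxa3, Anxa6, Anxa8, Anxa9 and Anxa11 were not called. Over all 14335 genes tested, 16.1% were called higher and 11.9% lower. All 10 members passed the filter on low counts, but Anxa9 passed through the dEx51 libraries alone, since 0 of its WT libraries reached the minimum of 0.508 CPM. The median log2 fold change of the 10 was 0.99, and that of the other members without Anxa9 is the value of Anxa7, 0.95, against -0.01 over all genes. DESeq2 and limma-voom also gave 0 lower at an adjusted p under 0.05. At an unadjusted edgeR p under 0.05 there were 0 lower as well. The one member that this level adds to the 5 is Anxa9, which adds no support because of how it passed the filter.

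**Figure D1:**
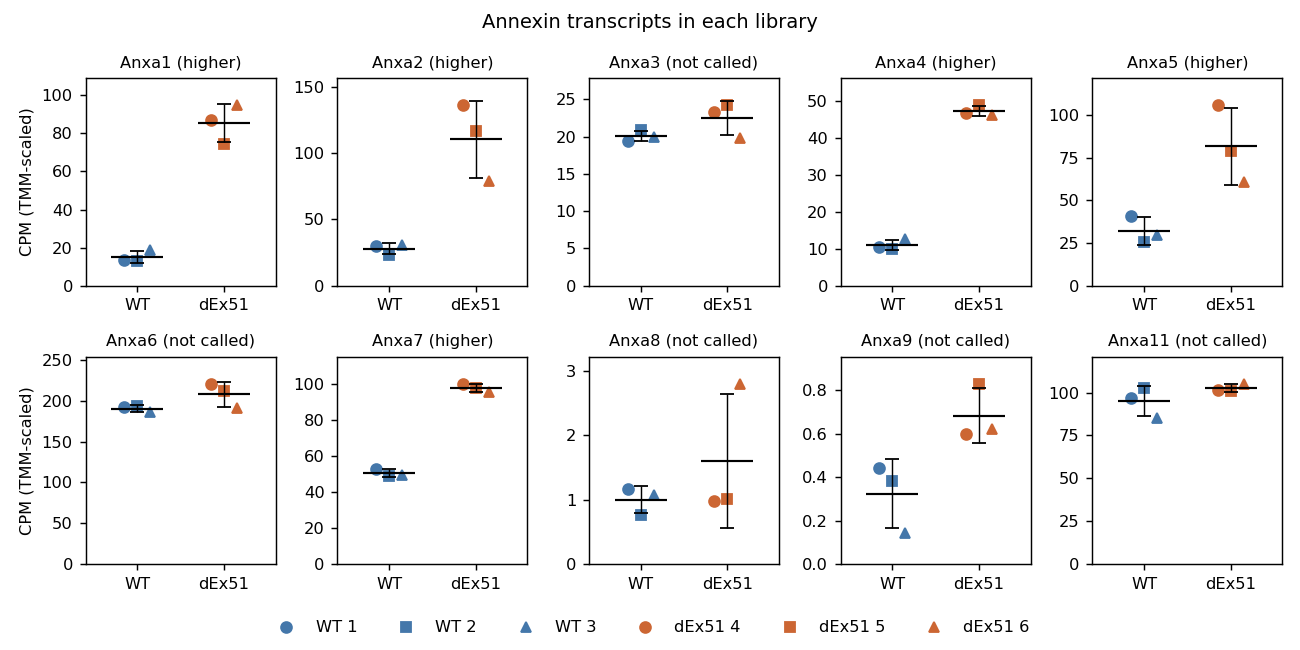
TMM-scaled CPM (vertical axes, from 0, a separate scale in each panel) of the 10 annexins in the 3 WT and 3 dEx51 libraries. Points are libraries, and lines and bars are the mean ± SD of each group. In the panels of Anxa1, Anxa2, Anxa4, Anxa5, Anxa7 and Anxa9 every dEx51 library lies above every WT library.

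Anxa1 and Anxa2 are the members most tied to inflammation and to the cell surface. Anxa1 (GRCm38 chromosome 19, 20373428 to 20390944, reverse strand) was at 13.5, 13.0 and 18.6 CPM in WT 1, 2 and 3 and at 87.3, 74.5 and 94.7 CPM in dEx51 4, 5 and 6. No dEx51 library came near the WT range, and dEx51 6 was the highest of the 6. The means were 15.03 ± 3.06 and 85.5 ± 10.2 CPM (SD, n = 3 each), a log2 fold change of 2.51 (SE 0.159, 95% interval 2.15 to 2.88, edgeR adjusted p = 2.55e-04).

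Anxa2 (chromosome 9, 69453620 to 69491795, forward strand) was at 29.8, 23.0 and 30.9 CPM in the WT libraries, against 136, 117 and 78.9 CPM in dEx51 4, 5 and 6. The groups did not overlap, and here dEx51 6 was the lowest of its group. The means were 27.9 ± 4.31 and 110.5 ± 29.0 CPM, a rise of 1.99 on the log2 scale (SE 0.209, 95% interval 1.51 to 2.47, edgeR adjusted p = 9.38e-04). With a dEx51 SD of 26.3% of the mean, Anxa2 had the wider spread between these libraries, beside Anxa1 (12.0%).

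Anxa4 and Anxa7 were the most even of the members that rose. Anxa4 (chromosome 6, 86736840 to 86793584, reverse strand), a member that binds membranes of secretory epithelia and other cells, was at 10.4, 10.1 and 12.6 CPM in the WT libraries, against 46.8, 48.9 and 46.3 CPM in dEx51. It rose by 2.11 on the log2 scale (SE 0.109, 95% interval 1.86 to 2.36, edgeR adjusted p = 1.10e-04). The SD within dEx51 was 2.91% of the mean. Anxa7 (chromosome 14, 20455260 to 20480133, reverse strand), also called synexin and first known for promoting the fusion of secretory granules, was at 52.9, 48.9 and 49.6 CPM in the WT libraries, against 100.2, 97.6 and 95.5 CPM in dEx51. The dEx51 SD was 2.41% of the mean, and the groups did not overlap, with a log2 fold change of 0.95 (SE 0.0797, 95% interval 0.77 to 1.14, edgeR adjusted p = 4.37e-04).

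Anxa5 (chromosome 3, 36448923 to 36475894, reverse strand), which forms lattices on phosphatidylserine-bearing membranes, was at 40.9, 25.3 and 29.5 CPM in the WT libraries, against 105.5, 78.5 and 60.8 CPM in dEx51. The groups did not overlap, but the spread was wide in both, 25.3% of the mean in WT and 27.6% in dEx51. It rose by 1.35 on the log2 scale (SE 0.233, 95% interval 0.82 to 1.89, edgeR adjusted p = 0.00553). WT 1 was the highest WT library for Anxa5, and dEx51 4 the highest of its group.

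Anxa6, Anxa11 and Anxa3 were detected well in every library and were not called. Anxa6 (chromosome 11, 54979108 to 55033445, reverse strand), a member with a duplicated core and a known genetic modifier of muscular dystrophy in mice, was at 192, 194 and 186 CPM in the WT libraries, against 221, 213 and 191 CPM in dEx51. The ranges overlapped, and the log2 fold change was 0.13 (95% interval -0.08 to 0.34, edgeR adjusted p = 0.327), so that the interval of the fold runs from 0.945 to 1.26. Anxa11 (chromosome 14, 25842156 to 25886804, forward strand), which binds the S100 protein calcyclin (S100a6), was at 96.9, 102.5 and 85.4 CPM in the WT libraries, against 101.8, 101.1 and 105.3 CPM in dEx51 (log2 fold change 0.11, 95% interval -0.10 to 0.33, edgeR adjusted p = 0.398). Anxa3 (chromosome 5, 96793339 to 96845966, forward strand) was at 19.4, 20.9 and 20.0 CPM in the WT libraries, against 23.3, 24.2 and 19.9 CPM in dEx51 (0.16, 95% interval -0.08 to 0.40, edgeR adjusted p = 0.281). The fold intervals of these 3 members end at 1.26, 1.25 and 1.32, whereas the lowest start among the 5 called members is 1.71 (Anxa7).

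Anxa8 and Anxa9 had few counts. Anxa8 (chromosome 14, 34085981 to 34100571, forward strand) had 21, 14 and 15 counts in WT and 23, 23 and 54 in dEx51 4, 5 and 6, so that the higher dEx51 mean rests on dEx51 6 (log2 fold change 0.65, edgeR adjusted p = 0.326, and -0.0044 without dEx51 6). Anxa9 (chromosome 3, 95296096 to 95307176, reverse strand), an atypical member whose core has lost most calcium binding, had 8, 7 and 2 counts in WT and 14, 19 and 12 in dEx51. All 3 dEx51 libraries were higher in CPM, but the gene was not called (1.02, 95% interval 0.09 to 1.95, edgeR adjusted p = 0.0956). Anxa9 shares 71 exon bases with the gene Mindy1 on the opposite strand, which had 3040 counts over the 6 libraries, and no source used here states the strand setting of the counting, so its counts are uncertain.

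In the 5 called members every dEx51 library lay above every WT library, and in 0 of the 10 members was every one below. Over all genes tested the shares were 23.8% above and 21.7% below. Anxa9 also had all its dEx51 libraries above WT, but it entered the test through those libraries, so it is not counted with the others. In the authors' deposited table, which lists 9 of the members and not Anxa9, the same 5 are called higher at an adjusted p under 0.05 and 0 lower, with log2 fold changes of 2.47 for Anxa1, 2.07 for Anxa4, 1.95 for Anxa2, 1.32 for Anxa5 and 0.92 for Anxa7. That table calls 19.1% of its 13958 genes higher and 18.8% lower.

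The scaling decides how the members near their WT level are read. With library size alone in place of TMM, all genes shift up together, their median log2 fold change by 0.35, and 9 of the 10 members are called higher and 0 lower, where 37.6% of all genes are called higher and 2.33% lower. Anxa6, Anxa11 and Anxa3 then stand at 0.48, 0.46 and 0.52, and Anxa9 at 1.37, while Anxa8 (0.97) is not called. The 5 members called under TMM stand at 1.31 (Anxa7) to 2.86 (Anxa1). They are therefore higher under either scaling, and the call of Anxa3, Anxa6, Anxa9 and Anxa11 depends on it.

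**Figure D2:**
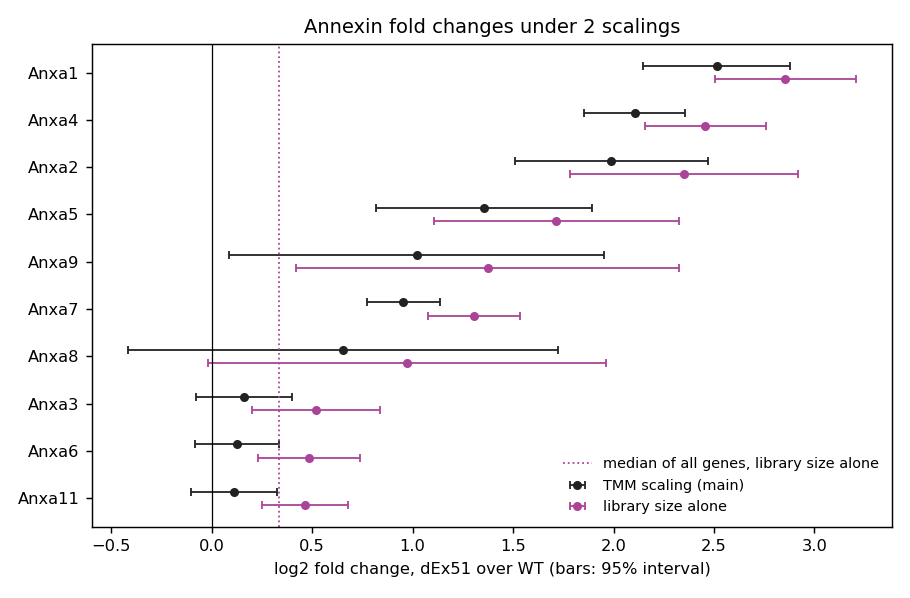
Log2 fold change of each annexin, dEx51 over WT (horizontal axis), with its 95% interval, under TMM scaling and under library size alone. The dotted line is the median of all genes under library size alone. Anxa3, Anxa6 and Anxa11 lie near 0 under TMM and between 0.46 and 0.52 under library size alone.

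Ratios of members within a library do not depend on the scaling between libraries. The Anxa1 transcript per length (RPKM, CPM divided by exon length in kilobases) was 0.0789, 0.0755 and 0.112 of that of Anxa6 in WT 1, 2 and 3, and 0.443, 0.393 and 0.556 of it in dEx51 4, 5 and 6. The mean log2 ratio was -3.52 ± 0.312 in WT and -1.12 ± 0.253 in dEx51 (SD, n = 3 each). For Anxa4, Anxa2, Anxa5 and Anxa7 the mean log2 ratio to Anxa6 was higher in dEx51 by 1.98, 1.84, 1.22 and 0.83. In each of these 5 ratios all dEx51 libraries lay above all WT libraries. The ratio of Anxa1 to Anxa2 was 0.649, 0.813 and 0.858 in WT and 0.918, 0.914 and 1.72 in dEx51 4, 5 and 6. For this ratio dEx51 4 and 5 lay just above WT 3, and the larger difference was in dEx51 6 alone. With 3 libraries against 3, the smallest p an exact permutation test of such a ratio can give is 0.1, so no test of these ratios is given.

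**Figure D3:**
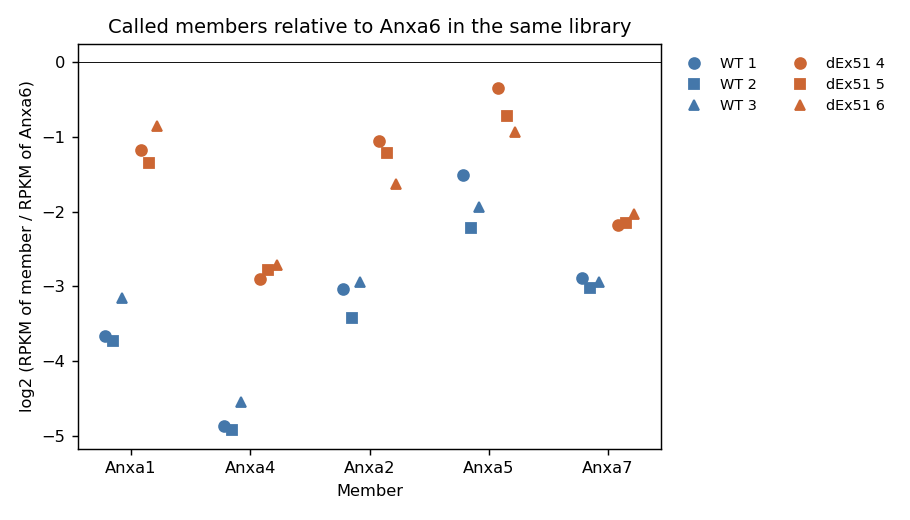
Log2 ratio of the RPKM of each called member to the RPKM of Anxa6 in the same library (vertical axis), for WT and dEx51 libraries. Every dEx51 point lies above every WT point of the same member, with the widest gap for Anxa1 (mean -3.52 in WT and -1.12 in dEx51).

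Per length, Anxa6 led the family in both genotypes, at 65.1 ± 1.43 RPKM in WT and 71.1 ± 5.25 RPKM in dEx51. In WT it was followed by Anxa11 (23.0 ± 2.10 RPKM), Anxa5 (17.95 ± 4.54), Anxa7 (8.42 ± 0.359), Anxa2 (7.47 ± 1.16), Anxa1 (5.76 ± 1.17), Anxa3 (5.52 ± 0.201), Anxa4 (2.37 ± 0.296), Anxa8 (0.533 ± 0.110) and Anxa9 (0.156 ± 0.0765). Neighbours in this order whose libraries overlapped were Anxa11 and Anxa5, Anxa7 and Anxa2, Anxa2 and Anxa1, and Anxa1 and Anxa3. The exon length of Anxa1 in the file is 2608 bases, while GENCODE release M21 gives 2911, so its RPKM holds for the file's gene model, and the other 9 members have the same length in both.

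The order changed in dEx51. Anxa5 (45.9 ± 12.7 RPKM), Anxa1 (32.8 ± 3.92) and Anxa2 (29.6 ± 7.78) came to stand above Anxa11 (24.8 ± 0.539), although the ranges of these 4 overlapped between neighbours. Anxa7 (16.3 ± 0.393), Anxa4 (10.2 ± 0.297) and Anxa3 (6.17 ± 0.624) followed with no overlap between neighbours. Anxa4 thus stood below Anxa3 in all WT libraries and above it in all dEx51 libraries.

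The summed level of the 10 members was 142, 133 and 133 RPKM in WT and 263, 235 and 216 RPKM in dEx51. Anxa6 made up 47.8 ± 1.86% of that sum in WT and 29.9 ± 1.12% in dEx51, and Anxa11 made up 16.9 ± 1.599% and 10.5 ± 1.24%. The share of Anxa1 was 4.24 ± 0.949% in WT and 13.9 ± 2.57% in dEx51, that of Anxa2 5.48 ± 0.805% and 12.3 ± 2.18%, and that of Anxa4 1.75 ± 0.253% and 4.31 ± 0.425%. The share of Anxa7 was 6.18 ± 0.0411% in WT and 6.89 ± 0.523% in dEx51, and its groups did not overlap. Anxa8 and Anxa9 each made up under 1% of the sum in every library. For Anxa5 the shares were 13.1 ± 2.78% and 19.1 ± 3.34%, and the libraries overlapped, with 16.2% in WT 1 and 15.9% in dEx51 6.

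**Figure D4:**
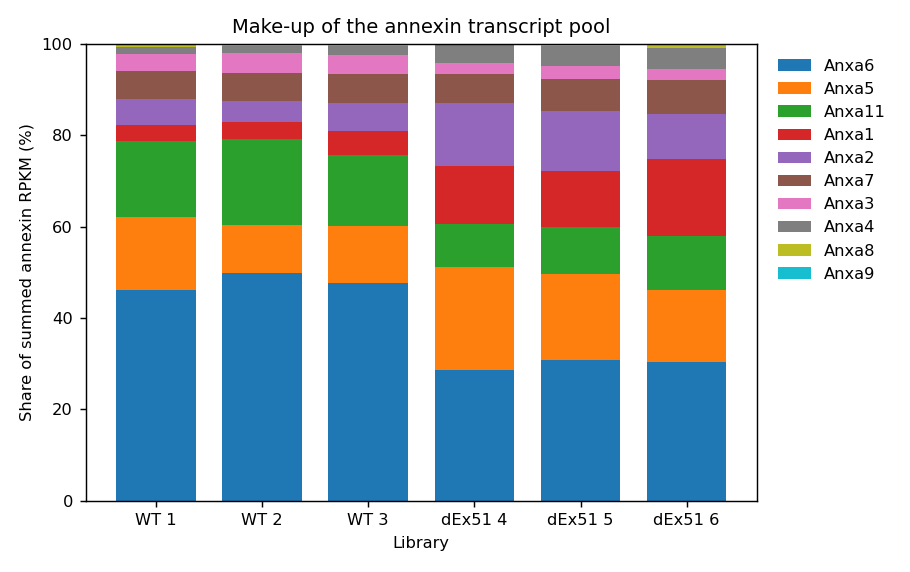
Share of each annexin in the summed RPKM of the 10 members (vertical axis, percent) in each library. Anxa6 takes 46.0% to 49.8% in the WT bars and 28.7% to 30.8% in the dEx51 bars, and Anxa1 and Anxa2 take larger parts in dEx51.

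The 3 dEx51 libraries were not alike for every member. Relative to the mean rise of dEx51 4 and 5 over WT, dEx51 6 reached 121% for Anxa1, 95.8% for Anxa4 and 93.0% for Anxa7, but 51.8% for Anxa2 and 48.1% for Anxa5. The 8 macrophage markers, 8 of 8 called higher, summed to 43.6 to 99.3 CPM in WT and to 766, 1304 and 529 CPM in dEx51 4, 5 and 6. The 4 cell cycle markers, 4 of 4 called higher, summed to 2.25 to 5.23 CPM in WT and to 82.0, 98.2 and 16.8 CPM in dEx51 4, 5 and 6. Their counts in WT 2 were too low for all 4 to have reached the filter minimum of 0.508 CPM there. At least part of these calls thus came through the dEx51 libraries, so the count of calls adds no support. Of the other marker lists, those of regenerating fibres (4 of 4 called higher) summed to 23.7 to 27.1 CPM in WT and 246, 224 and 303 CPM in dEx51 4, 5 and 6. The largest single part of that sum in each dEx51 library was embryonic myosin, Myh3 (128, 87.5 and 193 CPM). Mymk (14.3, 11.8 and 15.8 CPM) was highest in dEx51 6 too, whereas Myog (30.9, 52.4 and 24.1 CPM) and Chrna1 (73.1, 72.6 and 69.7 CPM) were lowest there. Mymk had only 3, 5 and 10 counts in WT 1, 2 and 3 and passed the filter through the dEx51 libraries, so its call adds no support. The fibro-adipogenic progenitor markers (4 of 6 called higher, 0 lower) summed to 1186 to 2150 CPM in WT and 2331, 2056 and 2250 CPM in dEx51 4, 5 and 6, with Col1a1 the largest part (676 to 1502 CPM in WT). Endothelial markers (3 of 5 called lower) summed to 422 to 509 CPM in WT and 297 to 376 CPM in dEx51. Among neutrophil markers Ly6g was at 0 counts in every library, S100a8 and S100a9 overlapped between the groups, and only Csf3r could be tested. Csf3r was at 0.110 to 0.387 CPM in WT and 2.28 to 8.09 CPM in dEx51 and was called higher. Its WT values lay below the filter minimum of 0.508 CPM, so it passed through the dEx51 libraries alone and its call adds no support. The part of these cell types in the annexin values was not tested.

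S100 proteins bind the tails of annexins, and all 4 partners on the list were called higher, against 16.1% of all genes tested. S100a10, which holds Anxa2 in a complex at the membrane, was at 15.6, 10.8 and 15.04 CPM in the WT libraries, against 50.9, 50.4 and 30.5 CPM in dEx51 4, 5 and 6 (log2 fold change 1.67, SE 0.223, edgeR adjusted p = 0.00215). Like Anxa2 it was lowest of its group in dEx51 6, which reached 45.4% of the rise of the other dEx51 libraries. S100a11, a partner of Anxa1, rose by 1.40 (SE 0.245), S100a6, a partner of Anxa11, by 1.495 (SE 0.226) and S100a4, from 0.625 ± 0.211 to 6.29 ± 1.81 CPM, by 3.34 (SE 0.339). In dEx51 6 these 3 reached 39.5%, 50.3% and 55.4% of the rise. All 4 were called under library size alone too, where 37.6% of all genes were called higher. S100a4 had only 14, 7 and 10 counts in WT, and WT 2 (0.384 CPM) lay under the filter minimum of 0.508 CPM. It therefore passed the filter through the dEx51 libraries, and its call adds no support. The list median was 1.58, and without S100a4 it is the value of S100a6, 1.495, against -0.01 over all genes.

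The receptors through which secreted Anxa1 acts were almost undetected. Fpr1 had 0 counts in WT and 1 in dEx51, Fpr2 had 1 and 6, and Fpr3 had 0 in all libraries, and none of these 3 passed the filter. Of the plasminogen activation genes, 2 of 4 tested were called higher and 0 lower, against 16.1% and 11.9% of all genes tested. Plaur, the urokinase receptor, was at 1.22, 0.712 and 0.931 CPM in the WT libraries, against 6.89, 4.77 and 2.65 CPM in dEx51 (2.32, SE 0.394, edgeR adjusted p = 0.00526), and Plau, which encodes urokinase, rose from 26.1 ± 1.76 to 44.4 ± 1.64 CPM (0.77, SE 0.0881). Plat, the tissue plasminogen activator, averaged 6.67 ± 2.25 CPM in WT and 8.93 ± 4.69 CPM in dEx51 with no call, and its log2 fold change of 0.42 was -0.10 without dEx51 4. The plasminogen receptor gene Plgrkt was not called (0.16), though library size alone called it (0.52). Plasminogen itself, Plg, had 0 counts in WT and 4 in dEx51.

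The wider membrane repair list was mixed. Of its 16 genes, all tested, 2 were called higher, 3 lower and 11 not called (median log2 fold change 0.08). Over all genes tested, 16.1% were called higher and 11.9% lower, so these counts lie near the general shares. Myof, which encodes myoferlin, a relative of dysferlin found in myoblasts and regenerating fibres, was at 15.3, 13.8 and 19.9 CPM in the WT libraries, against 55.4, 59.7 and 55.7 CPM in dEx51 (1.81, SE 0.138, edgeR adjusted p = 3.14e-04). The calpain gene Capn2 rose by 0.47 (SE 0.0954). Capn3, the muscle calpain, was at 167 ± 1.84 and 130 ± 15.3 CPM (log2 fold change -0.36), Syt7, a calcium sensor of lysosome exocytosis, at 3.41 ± 0.124 and 2.09 ± 0.410 CPM (-0.71), and the acid sphingomyelinase gene Smpd1, named after its values were seen, at 75.3 ± 6.88 and 58.2 ± 5.98 CPM (-0.37). These 3 calls did not hold under library size alone, where 9 of the 16 genes were called higher and 0 lower (37.6% and 2.33% of all genes). Nor did they hold when WT 1, WT 2, dEx51 4 or dEx51 5 was left out (edgeR adjusted p from 0.0589 to 0.13). Those of Capn3 and Syt7 also ended without WT 3 (edgeR adjusted p = 0.0798 and 0.0775). The call of Syt7 was lost as well with no filter (edgeR adjusted p = 0.0532) and with DESeq2 (adjusted p = 0.052), at about the same fold.

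The next list held 7 genes of the ESCRT machinery, which cuts away damaged membrane, and of the calcium-binding protein Pdcd6 and its partners. Of these 7, 2 were called higher and 0 lower (median 0.11), against 16.1% and 11.9% of all genes tested. Pdcd6, a calcium-binding partner of Anxa7 and Anxa11, rose from 12.6 ± 0.838 to 17.5 ± 1.04 CPM (0.48, SE 0.104, edgeR adjusted p = 0.0126), a call that ended without WT 2 (0.45). Vps4b, which encodes an ATPase of the ESCRT machinery, rose by 0.32 (SE 0.0856). That call ended when WT 1 (0.30), WT 2 (0.29), dEx51 4 (0.34) or dEx51 5 (0.30) was left out. The gene of the related ATPase, Vps4a, was named after its values were seen. It was not called (-0.10) and had the higher WT mean, 65.7 CPM against 31.2 CPM for Vps4b. The other genes named by the rule were Pdcd6ip (0.19) and Pef1 (-0.21), which were not called. Pef1 changed sign under library size alone (0.14), where 6 of the 7 were called higher, against 37.6% of all genes.

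Of 11 tested genes of phosphatidylserine exposure and recognition, the lipid signal that Anxa5 binds, 3 were called higher and 0 lower (median -0.02). The shares over all genes tested were 16.1% and 11.9%. Under library size alone 6 of the list were called higher, against 37.6% of all genes. The 3 called genes encode receptors or a ligand of recognition, but other recognition genes of the list were not called, among them Stab2 (-0.33) and Gas6 (-0.03), and Timd4, with 28 counts in WT and 10 in dEx51, did not pass the filter. These 3 were named after their values were seen. Axl, a receptor tyrosine kinase for uptake of dying cells, was at 50.9, 42.7 and 56.7 CPM in the WT libraries, against 101, 111 and 97.3 CPM in dEx51 (1.04, SE 0.119, edgeR adjusted p = 0.00123). The related receptor Mertk rose by 1.33 (SE 0.266), and Pros1, which encodes the bridging ligand protein S, by 0.80 (SE 0.119). The scramblase gene Xkr8 was not called under TMM (0.41) and was called under library size alone (0.76).

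**Figure D5:**
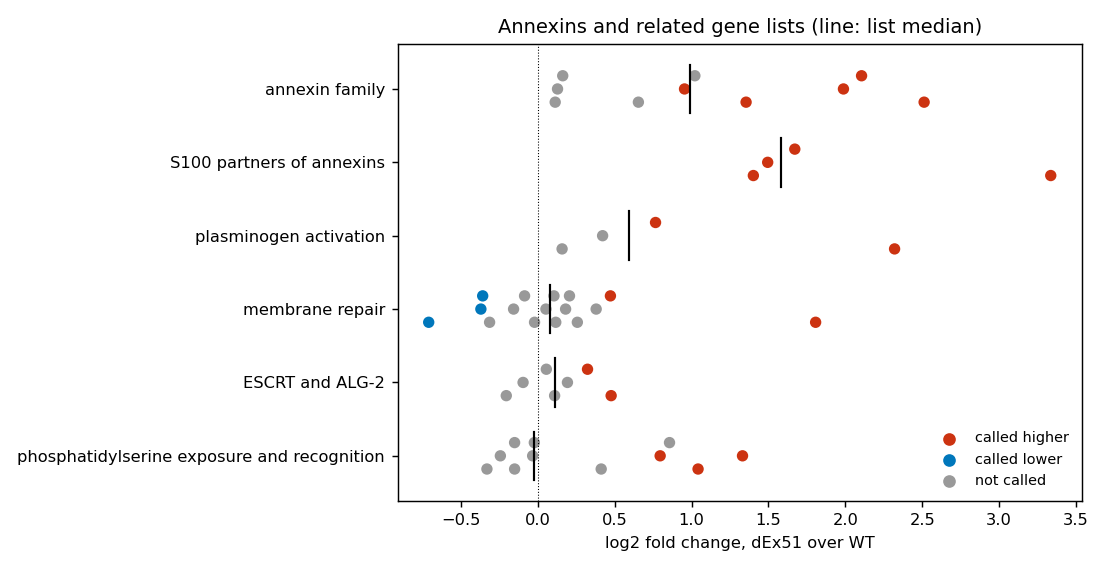
Log2 fold change, dEx51 over WT (horizontal axis), of the annexins and of the tested genes of 5 related lists. Points are genes, coloured by the call of the edgeR test under TMM, and black lines are list medians, which run from -0.02 for phosphatidylserine exposure and recognition to 1.58 for the S100 partners.

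The genes whose pattern over the 6 libraries was nearest to that of a member were found by the root mean square difference of centred log2 CPM, among tested genes with a mean of at least 5 CPM. For Anxa2 they were Col8a1, a short-chain collagen gene (0.0516), and the galactosyltransferase gene B4galt6 (0.0629). Col8a1 was at 15.2, 12.3 and 15.5 CPM in the WT libraries, against 66.6, 57.7 and 37.8 CPM in dEx51, with dEx51 6 the lowest of its group, as for Anxa2. For Anxa5 they were Dpysl3 (0.0650) and Metrnl (0.0663). For Anxa4 they were Chrna1, the acetylcholine receptor alpha subunit (0.130), and Ahnak2 (0.136), and for Anxa1, whose nearest genes lay farther away, Chrna1 (0.208) and Rab27b (0.237). A set of 6 libraries in 2 groups allow many genes to lie this close, and no test was made.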

How the data were processed

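Strand-marked mRNA libraries were made from tibialis anterior muscle, per the labels' protocols. The build GRCm38 and the tools featureCounts 1.6.0, edgeR 3.30.1 and FastQC 0.11.4 are named, per the submitters' processing notes. No source used here gives the aligner, strand setting or annotation release. The authors deposited a table of raw read counts with each gene's exon length, and RPKM values. For the 9 members listed there, the deposited RPKM equals CPM of the library total divided by length in kilobases within 0.0188 log2 units. Per the file headers, the authors' comparison table holds log2 fold changes, a likelihood-ratio score, p-values and their −log10.

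Genotypes were compared with the quasi-likelihood test of edgeR 4.0.16 (R 4.3.3) on the deposited counts of 54232 genes, with TMM scaling, the default filter by group (14335 genes left) and Benjamini-Hochberg adjustment, two-sided, on 3 WT and 3 dEx51 libraries. CPM and RPKM use TMM-scaled sums over the genes tested. The SE is the absolute log2 fold change divided by the square root of F. The test was tried on simulated counts. Within a group, chi-square per degree of freedom between libraries was 8.08 to 42.9, so no library repeats another. Positions come from GENCODE M21 and upstream sequences from RefSeq, both on GRCm38.

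All 10 members are named. Related genes are named in full for lists of 5 or fewer and otherwise as the 4 with the smallest adjusted p. The 2 genes most alike (no Gm or Rik symbols) are given for 4 members, with a pseudocount of 0.1 CPM. The members and lists were chosen with earlier results of these data known. Alternatives were other scalings, filters and tests (DESeq2 1.42.0, limma 3.58.1, the likelihood-ratio test), the deposited RPKM, a stricter threshold, a replicate block and each library left out.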

Additional observations from a re-analysis of the deposited data

How the results depend on the processing

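The 5 members called higher were called under each of the 16 other fits, with log2 fold changes of 2.41 to 2.86 for Anxa1, 2.01 to 2.46 for Anxa4, 1.81 to 2.35 for Anxa2, 1.13 to 1.72 for Anxa5 and 0.92 to 1.31 for Anxa7, and at an adjusted p under 0.01 in the main fit. The highest adjusted p was 0.0271, for Anxa5 without WT 2. The count of members called higher was 9 with library size alone and 8 with the deposited RPKM at a pseudocount of 0.1 or 1, which is also scaled to library totals, and 5 in all other settings. None was called lower in any setting. With 1 library left out in turn, Anxa8 ran from -0.0044 (without dEx51 6) to 0.9123 and Plat from -0.1035 (without dEx51 4) to 0.7233. Pef1 turned to 0.1444 with library size alone and to 0.147 and 0.1361 with the deposited RPKM at pseudocounts of 0.1 and 1. The reason for these changes of sign was not tested.

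The descriptions number the libraries of each group 1 to 3, but same-numbered libraries did not all deviate together. Their correlations were 0.351, -0.0104 and 0.0558 for numbers 1, 2 and 3, and the own number matched best for 1 of 3. The number is therefore not taken as a pairing. With it as a replicate block, 5 members were higher and 0 lower, Anxa1 stood at 2.52, and the edgeR adjusted p of Anxa5 was 5.84e-04. With 50 counts of Anxa8 and 17 of Anxa9 over the WT group, depth limits what can be said of these 2 members.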

Other observations

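Mfge8, which encodes a bridging protein that binds phosphatidylserine on dying cells, was at 49.6, 46.1 and 44.1 CPM in the WT libraries, against 47.7 and 46.3 CPM in dEx51 4 and 5, but at 160 CPM in dEx51 6. The gene was not called (log2 fold change 0.86, 95% interval -0.17 to 1.88, edgeR adjusted p = 0.186). It was chosen after its values were seen. Anxa8 was also highest in dEx51 6, where it had 2.80 CPM, while dEx51 4 and 5 had 0.984 and 1.006.

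Of the other symbols that begin with Anxa, Anxa10 had 0 counts in all 6 libraries, Anxa13 had 3 in WT and 4 in dEx51, and Anxa11os, a transcript antisense to Anxa11 that shares 113 exon bases with it, had 22 and 25. None of these 3 passed the filter.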
